A study of Homo sapiens with 6 samples.

Results

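The genes described here encode Polycomb repressive complex 2 (PRC2) and the PRC1 subunit BMI1 in HUDEP-2 cells after knockdown of MEN1. They were chosen by symbol from the deposited gene tables: EZH1, EZH2, EED, SUZ12, JARID2, AEBP2, MTF2, PHF1, PHF19 and BMI1. All 10 were found, 1 row each, among 62754 gene rows. HUDEP-2 is a human erythroid progenitor line, immortalised with papillomavirus E6 and E7 genes that doxycycline keeps on, and it makes mainly adult hemoglobin. The medium of both groups was StemSpan SFEM. It held 1e-06 M dexamethasone, doxycycline (1 µg/ml), stem cell factor (50 ng/ml) and erythropoietin (3 units/ml). In one group, labelled as MEN1 knockdown, a lentivirus carried the shRNA MEN1sh2 against MEN1, which encodes menin, a subunit of MLL1 methyltransferase complexes (n = 3 libraries). In the other, labelled WT, it carried the control shRNA Controlsh (n = 3). Every culture was selected with puromycin at 2 µg per ml from 24 h after infection for 48 h, and RNA was taken at 72 h. The labels give 1 MEN1 hairpin, so effects of that hairpin on other transcripts and loss of menin cannot be told apart. The series concerns how the MLL1 complex keeps fetal hemoglobin low.

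Polycomb complexes keep genes silent through histone marks. PRC2 places methyl groups on lysine 27 of histone H3, and this mark in turn draws in canonical PRC1, which compacts chromatin and carries the RING1 or RNF2 ubiquitin ligase. In PRC2 the catalytic subunit is EZH2 or its paralog EZH1, held by EED, which binds the mark, and SUZ12, the scaffold. Accessory subunits define 2 forms: PRC2.1 holds PHF1, MTF2 or PHF19, and PRC2.2 holds JARID2 and AEBP2. EZH2 dominates in dividing cells, while EZH1 is known to gain weight as erythroid cells mature. MLL1 complexes methylate a different lysine of histone H3 and are classically set against Polycomb.

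Promoter sequence is shown for the catalytic pair EZH1 and EZH2, for PHF1, the member with the largest change, and for BMI1. Each stretch is from RefSeq on GRCh38.p14, 260 bases, 5′ to 3′ on the gene's strand, from 250 bases before the start to 10 bases from it. They lie at chr17:42745031-42745290 (minus strand), chr7:148884282-148884541 (minus strand, 1 of 2 windows listed for EZH2), chr6:33410764-33411023 (plus strand) and chr10:22320849-22321108 (plus strand, 1 of 2 listed for BMI1). Capitals mark a match to a searched motif.
EZH1: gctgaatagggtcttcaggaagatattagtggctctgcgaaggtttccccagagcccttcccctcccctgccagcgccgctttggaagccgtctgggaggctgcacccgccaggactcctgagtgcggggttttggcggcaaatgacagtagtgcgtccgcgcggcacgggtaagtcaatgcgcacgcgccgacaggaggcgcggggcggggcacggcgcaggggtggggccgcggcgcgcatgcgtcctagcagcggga
EZH2: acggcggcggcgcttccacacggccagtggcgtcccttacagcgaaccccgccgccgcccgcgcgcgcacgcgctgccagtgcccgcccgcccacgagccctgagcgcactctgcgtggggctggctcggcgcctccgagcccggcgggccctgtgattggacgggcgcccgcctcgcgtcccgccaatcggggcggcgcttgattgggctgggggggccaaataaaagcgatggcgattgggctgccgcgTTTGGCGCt
PHF1: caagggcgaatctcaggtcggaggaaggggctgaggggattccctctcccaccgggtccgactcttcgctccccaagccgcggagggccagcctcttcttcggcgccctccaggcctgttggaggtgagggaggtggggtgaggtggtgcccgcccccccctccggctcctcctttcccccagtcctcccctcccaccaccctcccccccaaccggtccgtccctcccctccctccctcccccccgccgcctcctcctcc
BMI1: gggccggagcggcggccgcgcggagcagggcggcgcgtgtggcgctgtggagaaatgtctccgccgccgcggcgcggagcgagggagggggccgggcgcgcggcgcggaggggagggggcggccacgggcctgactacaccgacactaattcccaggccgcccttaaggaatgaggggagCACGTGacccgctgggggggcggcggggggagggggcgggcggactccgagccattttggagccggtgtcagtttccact

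The motifs were searched on both strands in the full windows of 300 bases, of which the table has 35116, with 14 for the 10 members. An E2F motif spelled TTTGGCGC was present in 0.65% of all windows and in EZH2 among the members, at the start of the gene. The E2F spelling TTTCCCGC was present in 1.63% of windows and in MTF2, PHF19 and SUZ12. The E-box CACGTG, in 7.26% of windows, was found in BMI1. Neither the GATA motif AGATAA (10.3% of windows) nor the ETS motif CCGGAAGT (4.14%) was found in a member's window. EZH1, PHF1, EED, JARID2 and AEBP2 held none of the motifs. The hits are matches of letters and not binding sites. The windows held 16 CG dinucleotides in EED, 19 in PHF1, 30 in EZH1 and 46 in the printed EZH2 window, against a median of 14 over all windows.

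Depth inferred from the deposited values was 18400000 to 35800000 read pairs per library. MEN1 (ENSG00000133895), which checks the labels, had a TPM (the deposited transcript abundance, scaled to transcript length and library total) of 41.2, 39.6 and 37.1 in the controls. It was cut to 6.29, 6.44 and 6.88 TPM by the shRNA against it. The filter on low values kept 14294 genes (TPM at or above 1 in 3 or more of the 6 libraries). The limma threshold, an adjusted p under 0.05, was passed by 7657 of them (53.6%). These were 22.1% of genes tested upward and 31.5% downward (3158 and 4499 genes). The imbalance was nearly gone with median-of-ratios scaling (3758 upward, 3839 downward) and quantile normalization (3731 and 3864). MEN1 shRNA replicate 1 stood nearest to the controls, with a mean correlation with them of 0.953 against 0.936 and 0.934 for replicates 2 and 3, across genes. The erythroid label was borne out by all 10 erythroid markers, none of which was absent. Their summed TPM was 55400 to 61500 in the controls and 95900 to 108000 with the MEN1 shRNA. Most of that sum came from the globin genes HBA1, HBA2 and HBB, with control means of 12210, 11970 and 30240 TPM. While 7 of 10 markers passed upward, KLF1, GATA1 and EPOR did not pass (log2 fold changes -0.05, 0.06 and 0.02). Of 8 megakaryocyte markers, 7 stayed below 1 TPM, with PF4 and PPBP at 0 in every library. The remaining marker, ITGA2B, fell from 33.8 ± 2.44 to 18.6 ± 2.35 TPM (adjusted p 0.000456 in limma). In bulk RNA, fewer cells of a type and less RNA per cell cannot be told apart.

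All 10 Polycomb members passed the filter on low values. EZH1, PHF1 and EED rose, AEBP2 and BMI1 fell, and EZH2, SUZ12, JARID2, MTF2 and PHF19 did not pass the threshold. These 5 of 10 (50.0%) stand beside 53.6% of all genes tested, so the count says nothing particular about the Polycomb members. It was 3 without control replicate 2 or MEN1 shRNA replicate 2 and 6 without MEN1 shRNA replicate 1. The groups did not overlap in 6 members, against 61.8% of all genes. The median log2 fold change of the members was -0.08, beside -0.07 over all genes. Members lay on both sides of 0, from -0.50 for AEBP2 to 1.09 for PHF1.

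**Figure D1:**
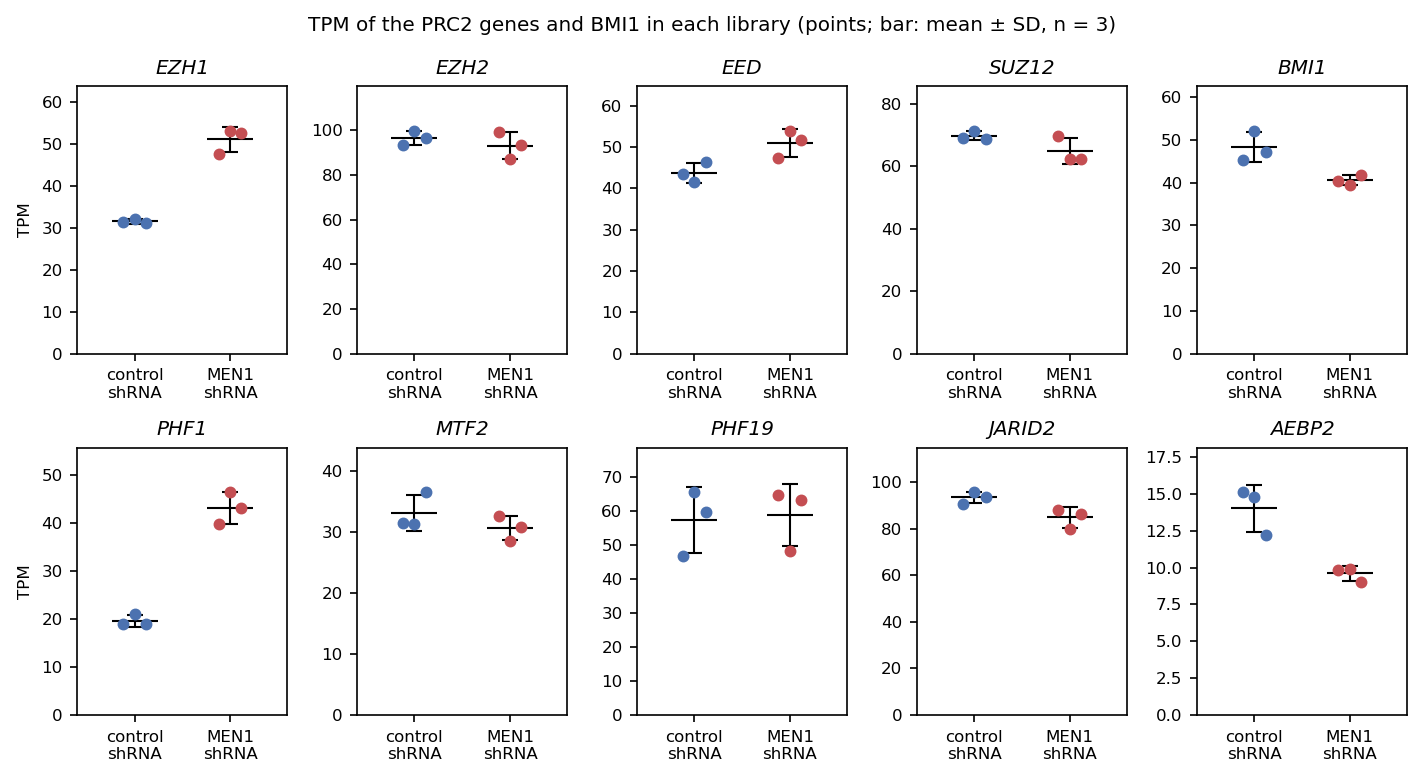
TPM of each member (vertical axis, from 0) in the 3 control shRNA libraries (blue) and 3 MEN1 shRNA libraries (red), with mean ± SD. EZH1 and PHF1 separate by the widest margins, with EZH1 at 31.03 to 32.1 TPM in the controls and 47.5 to 53.1 TPM with the MEN1 shRNA.

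The catalytic subunits parted. EZH1 (ENSG00000108799, build hg38, as are all gene positions here, chromosome 17, 42700275 to 42745049, minus strand), the catalytic paralog of EZH2, was at 31.3, 32.1 and 31.03 TPM in the controls and 47.5, 53.1 and 52.4 TPM with the MEN1 shRNA. Values are given here and below in the order of replicates 1, 2 and 3. The controls lay within about 1 TPM of each other and every MEN1 shRNA library lay above them. EZH1 rose from 31.5 ± 0.568 to 51.01 ± 3.02 TPM (SD, n = 3 each), a ratio of 1.62 (log2 fold change 0.68, SE 0.0676, adjusted p 0.000155 in limma).

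EZH2 (ENSG00000106462, chromosome 7, 148807257 to 148884321, minus strand), the main H3 lysine 27 methyltransferase of proliferating cells, was at 93.5, 99.9 and 96.8 TPM in the controls and 99.2, 87.1 and 93.4 TPM with the MEN1 shRNA. The groups overlapped, with MEN1 shRNA replicate 1 inside the control range. Its log2 fold change was -0.05 (95% interval -0.21 to 0.099, adjusted p 0.516) and its sign turned under 3 of the scalings tried (0.0052 to 0.0325). By TPM, EZH2 was the most abundant member on average in both groups, although its libraries overlapped those of JARID2; by gene-level coverage SUZ12 came first and EZH2 next.

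As a share of EZH1 and EZH2 transcripts together, EZH1 made up 25.05%, 24.3% and 24.3% in the controls and 32.4%, 37.9% and 35.9% with the MEN1 shRNA. The means were 24.5% ± 0.439 and 35.4% ± 2.77 (SD, n = 3 each), 10.9 percentage points apart. No library of one group reached the range of the other. Summed, the catalytic pair came to 128 ± 3.65 TPM in the controls and 144 ± 3.56 TPM with the MEN1 shRNA. TPM is scaled per transcript length, which lets the levels of different genes be set side by side.

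**Figure D2:**
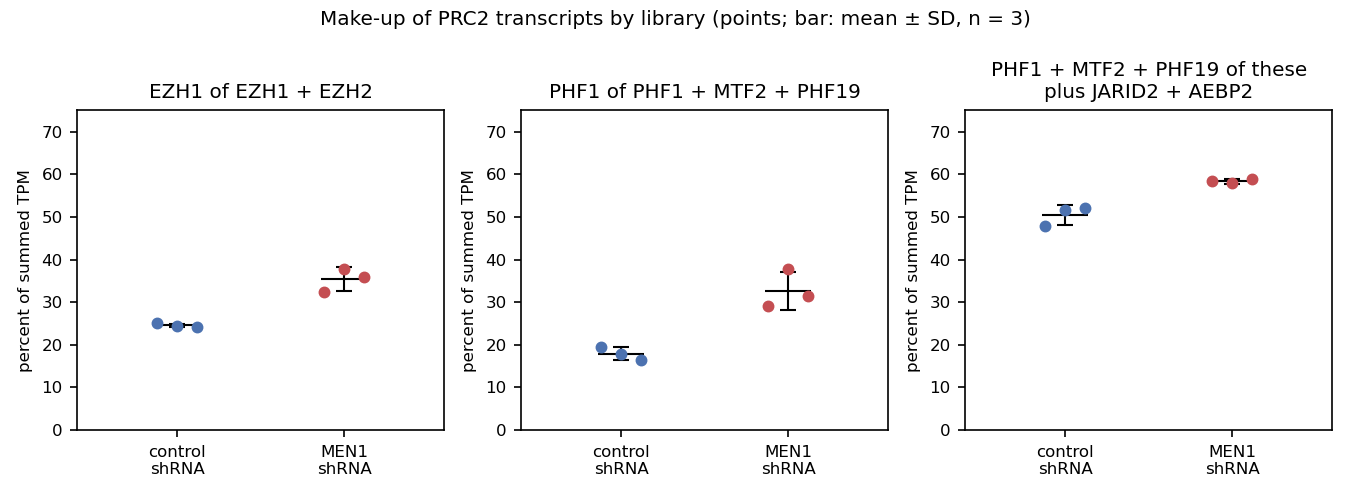
Percent of summed TPM (vertical axis, from 0), per library with mean ± SD. Panels give EZH1 among the catalytic pair, PHF1 among PHF1, MTF2 and PHF19, and these 3 among the 5 accessory members. The groups do not overlap in any panel, with EZH1 at 24.3% to 25.05% in the controls and 32.4% to 37.9% with the MEN1 shRNA.

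EED (ENSG00000074266, chromosome 11, 86201212 to 86278813, plus strand), the subunit that reads the methyl mark and stimulates the enzyme, was at 43.4, 41.6 and 46.3 TPM in the controls and 47.3, 54.01 and 51.7 TPM with the MEN1 shRNA. The highest control and the lowest MEN1 shRNA library lay about 1 TPM apart. EED rose 1.17 times (log2 fold change 0.22, SE 0.0749, adjusted p 0.0425). The call was lost without control replicate 1 (adjusted p 0.0971), control replicate 2 (0.129), MEN1 shRNA replicate 2 (0.136) or MEN1 shRNA replicate 3 (0.106). It was also lost with gene-level coverage in place of TPM (0.0825), without the filter (0.0851), without the trend in the variance model (0.0719) and with a replicate block (0.0765). Over all alternatives its adjusted p ran from 0.0129 to 0.136.

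SUZ12 (ENSG00000178691, chromosome 17, 31937007 to 32001038, plus strand), the scaffold on which PRC2 assembles, was at 69.2, 71.5 and 68.8 TPM in the controls and 69.8, 62.4 and 62.5 TPM with the MEN1 shRNA. MEN1 shRNA replicate 1 lay within the control range and the other two below it. The log2 fold change was -0.11 (95% interval -0.26 to 0.047, adjusted p 0.213). Without MEN1 shRNA replicate 1 it was -0.16, with an adjusted p of 0.0499.

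Among the PRC2.1 accessory subunits PHF1 changed by far more than its relatives. PHF1 (ENSG00000112511, chromosome 6, 33410399 to 33416453, plus strand), a Tudor-domain protein that helps PRC2 hold on to chromatin, was at 18.9, 21.1 and 18.9 TPM in the controls and 39.8, 46.4 and 43.03 TPM with the MEN1 shRNA. Even the lowest MEN1 shRNA library lay well above the highest control. PHF1 rose from 19.6 ± 1.23 to 43.1 ± 3.31 TPM (SD, n = 3 each), a ratio of 2.19 (log2 fold change 1.09, SE 0.0836, adjusted p 5.81e-05). Of all genes tested 4.96% passed the threshold with a log2 fold change of 1 or more, and PHF1 was at percentile 90.1 of absolute change. The end of PHF1 overlaps that of CUTA on the opposite strand, which moved the other way, from between 220.3 and 222.4 TPM to between 156.6 and 188.8 TPM.

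MTF2 (ENSG00000143033, chromosome 1, 93079235 to 93139079, plus strand), which recruits PRC2 to CG-rich DNA, was at 31.5, 31.3 and 36.5 TPM in the controls and 32.6, 28.6 and 30.8 TPM with the MEN1 shRNA. The groups overlapped (log2 fold change -0.10, 95% interval -0.31 to 0.099, adjusted p 0.348), and the sign turned with gene-level coverage (0.031). PHF19 (ENSG00000119403, chromosome 9, 120855651 to 120894896, minus strand), the third of these relatives, was at 46.6, 65.5 and 59.7 TPM in the controls and 64.5, 48.2 and 63.2 TPM with the MEN1 shRNA. It had the widest spread of the members, 9.65 TPM in the controls and 9.10 TPM with the MEN1 shRNA. Its log2 fold change of 0.04 (95% interval -0.32 to 0.39, adjusted p 0.865) is compatible with a change in either direction, and its sign turned with array weights and without control replicate 1 (-0.10), MEN1 shRNA replicate 1 (-0.039) or MEN1 shRNA replicate 3 (-0.024).

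Within PHF1, MTF2 and PHF19 together, PHF1 held 19.5%, 17.9% and 16.4% of TPM in the controls and 29.1%, 37.7% and 31.4% with the MEN1 shRNA. The lowest PHF1 share of the MEN1 shRNA group was thus above the highest control share. By TPM, PHF19 stayed ahead of PHF1 in every library, at 48.2 against 46.4 TPM in MEN1 shRNA replicate 2. By gene-level coverage PHF1 was ahead in that library (85.8 against 37.7) and in control replicate 1 (36.0 against 35.6).

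The PRC2.2 subunits were lower or not distinguishable. AEBP2 (ENSG00000139154, chromosome 12, 19404045 to 19720801, plus strand), a zinc finger protein that stabilises PRC2, was at 15.1, 14.8 and 12.2 TPM in the controls and 9.87, 9.92 and 9.04 TPM with the MEN1 shRNA. All MEN1 shRNA libraries were below all controls. AEBP2 fell to a ratio of 0.685 (log2 fold change -0.50, SE 0.106, adjusted p 0.00539). Gene-level coverage, scaled to library totals, gave a ratio of 0.642; its fitted log2 fold change was -0.25 (adjusted p 0.0198) because 1 is added to coverages that lay below 1. JARID2 (ENSG00000008083, chromosome 6, 15246069 to 15522042, plus strand), an inactive relative of the Jumonji demethylases that guides PRC2 to its targets, was at 90.8, 95.7 and 93.7 TPM in the controls and 88.1, 79.9 and 86.5 TPM with the MEN1 shRNA. Its groups did not overlap, but the difference missed the threshold (log2 fold change -0.14, 95% interval -0.28 to 0.0029, adjusted p 0.0908). It passed with array weights (adjusted p 0.0448).

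The levels of JARID2 and AEBP2 carry a limit of the files. In single-transcript genes coverage per base stands in a fixed ratio to FPKM within a library. Against that ratio the coverage of JARID2 was 4.52% to 4.57% of what its FPKM gives, and that of AEBP2 2.07% to 2.69%, while SUZ12 was at 66.1% to 67.9% and the other 7 members between 14.0% and 50.4%. Whether reads over a small stretch of JARID2 and AEBP2 carry their TPM was not tested. In PHF19 the coverage against that ratio moved between libraries of a group. It was 20.2%, 31.8% and 31.6% in the controls and 36.6%, 20.9% and 36.2% with the MEN1 shRNA. EZH1 ran from 24.9% to 32.9% and MTF2 from 21.6% to 30.0%.

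Among the accessory members, PHF1, MTF2 and PHF19 together made up 47.8%, 51.6% and 52.1% of TPM in the controls. With the MEN1 shRNA they made up 58.3%, 57.8% and 58.9%. The rest was JARID2 and AEBP2, while EPOP and LCOR, described below, were not counted. On average the share of PHF1, MTF2 and PHF19 was 50.5% ± 2.35 in the controls and 58.4% ± 0.550 with the MEN1 shRNA (SD, n = 3 each), 7.85 points more. From gene-level coverage the level itself was far higher, at 88.0% ± 2.1 and 92.3% ± 0.673, with JARID2 and AEBP2 making up little of the coverage. The difference there was 4.26 points.

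BMI1 (ENSG00000168283, chromosome 10, 22321099 to 22331484, plus strand), the PRC1 subunit that activates the ubiquitin ligase and supports self-renewal of blood stem cells, was at 45.4, 52.2 and 47.2 TPM in the controls and 40.5, 39.5 and 41.8 TPM with the MEN1 shRNA. The groups did not overlap. BMI1 fell from 48.2 ± 3.52 to 40.6 ± 1.17 TPM, a ratio of 0.841 (log2 fold change -0.24, SE 0.072, adjusted p 0.0232). This call was lost without control replicate 2 (adjusted p 0.0758), control replicate 3 (0.0501) or MEN1 shRNA replicate 2 (0.0738). It was also lost under the 3 scalings that centre the bulk of genes, with log2 fold changes of -0.18 to -0.16 and adjusted p-values of 0.0682 to 0.0696. The readthrough gene COMMD3-BMI1 (ENSG00000269897), whose row overlaps BMI1 on the same strand, reached at most 2.19 TPM. The sum of both rows had a log2 fold change of -0.23 (SE 0.0783, adjusted p 0.0369), and its adjusted p over all alternatives ran from 0.0221 to 0.117.

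**Figure D3:**
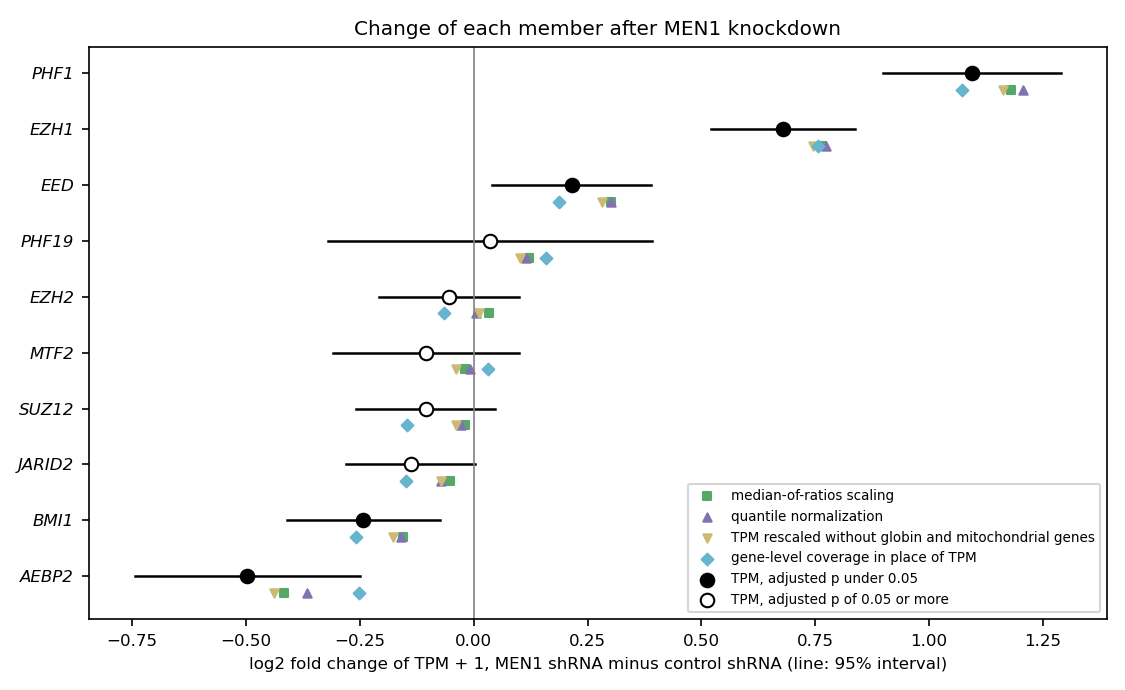
Log2 fold change of each member (horizontal axis, MEN1 shRNA minus control shRNA, log2(TPM + 1)) with its 95% interval; filled circles passed an adjusted p of 0.05 and the small markers give other scalings and gene-level coverage. PHF1 at 1.09 and EZH1 at 0.68 lie apart from the other members, while the markers of EZH2 lie on both sides of 0. The coverage marker of AEBP2 is drawn toward 0 by the 1 added to its low coverage.

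In order of TPM, the controls ran EZH2, JARID2, SUZ12, PHF19, BMI1, EED, MTF2, EZH1, PHF1 and AEBP2. Neighbours whose libraries overlapped were EZH2 and JARID2, PHF19 and BMI1, BMI1 and EED, and MTF2 and EZH1. With the MEN1 shRNA the order was EZH2, JARID2, SUZ12, PHF19, EZH1, EED, PHF1, BMI1, MTF2 and AEBP2. EZH1 thus moved from place 8 to place 5 and PHF1 from 9 to 7, while BMI1 went from 5 to 8. The libraries of SUZ12, PHF19, EZH1 and EED overlapped between neighbours in that group, and so did those of PHF1 and BMI1 and of EZH2 and JARID2. By gene-level coverage the controls ran SUZ12, EZH2, BMI1, PHF19, PHF1, EZH1, MTF2, EED, JARID2 and AEBP2, so the order depends on the unit. With the MEN1 shRNA it was SUZ12, EZH2, PHF1, PHF19, EZH1, BMI1, MTF2, EED, JARID2 and AEBP2. Coverage per library behind these values was 0.485 reads per base at the least, in AEBP2, and 237 at the most, in SUZ12.

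The rest of the Polycomb machinery was read from 5 lists of 47 genes, of which 44 passed the filter. In these, 12 rose and 13 fell, 25 of 44 (56.8%) beside 53.6% of all genes tested, with a median log2 fold change of -0.12. Some paralogs within the lists differed in direction and others moved together. Of the PCGF paralogs of BMI1, PCGF1 (log2 fold change 0.42), PCGF2 (0.72), PCGF3 (0.47) and PCGF5 (0.39) passed upward. PCGF6 (-0.14) did not pass. RBBP4, RING1, RNF2, BAP1, KDM6B, PCGF1, PCGF3 and PCGF6 fall outside the naming rule and were chosen after their values were seen.

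Of 5 further PRC2 partners tested, 1 rose and 2 fell, so 60.0% were called, beside 53.6% of all genes tested. LCOR, whose locus also encodes the PRC2.1 cofactor PALI1, rose from 11.5 ± 1.01 to 28.1 ± 4.23 TPM (adjusted p 0.000173, log2 fold change 1.21), but by 0.54 with gene-level coverage. EPOP, a PRC2.1 subunit that links to elongin, fell from 17.4 ± 1.22 to 9.16 ± 0.790 TPM (log2 fold change -0.86). The histone chaperone RBBP7, held in common with NuRD complexes, was at 179, 198 and 189 TPM in the controls and 133, 97.5 and 99.99 TPM with the MEN1 shRNA (log2 fold change -0.79, adjusted p 0.000966). Its paralog RBBP4 was at 61.8, 68.2 and 63.7 against 69.1, 54.1 and 45.1 TPM and did not pass the threshold (adjusted p 0.229). EZHIP, an inhibitor of PRC2, was listed at 0 in every library.

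In canonical PRC1, 3 of 13 genes rose and 4 fell, so 53.8% were called, beside 53.6% of all genes tested. PCGF2, the paralog that can take the place of BMI1, was at 7.22, 7.05 and 6.86 TPM in the controls and 10.9, 13.5 and 12.5 TPM with the MEN1 shRNA (log2 fold change 0.72, adjusted p 0.000819). BMI1 itself stayed the more abundant of the pair, and the groups of PCGF2 did not overlap. Of the chromodomain subunits that bind the H3 lysine 27 mark, CBX2 was at 16.2, 16.9 and 17.05 TPM in the controls and 8.41, 6.49 and 5.54 TPM with the MEN1 shRNA (log2 fold change -1.20, adjusted p 0.000287). CBX7 went the other way, from 3.90, 3.86 and 3.09 to 6.98, 7.95 and 7.37 TPM (log2 fold change 0.87, adjusted p 0.000655), a ratio of 2.06 in TPM and 1.80 in scaled gene-level coverage. SCMH1, a Polycomb protein that joins PRC1 loosely, fell from 34.1 ± 0.771 to 22.4 ± 0.635 TPM. Of the ubiquitin ligases, RING1 had a log2 fold change of 0.30 (adjusted p 0.00338) and RNF2 of -0.18 (adjusted p 0.0908).

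In variant PRC1, whose forms lack CBX subunits, 3 of 15 genes tested rose and 4 fell. This is 46.7% called, beside 53.6% of all genes tested. KDM2B, which brings one form to CG-rich promoters, fell from 26.4 ± 1.04 to 14.2 ± 1.82 TPM (adjusted p 0.000306, log2 fold change -0.85). DCAF7 (log2 fold change -0.61) and FBRSL1 (-0.69) fell, and PCGF5, the core subunit of another form, rose (0.39, and 0.72 with gene-level coverage). In PR-DUB, the complex that removes the PRC1 ubiquitin mark, 4 of 9 genes tested rose and 3 fell. For this short list 77.8% were called, beside 53.6% of all genes, and the difference was not tested. ASXL1, the partner of the ubiquitin hydrolase BAP1, was at 20.02, 25.4 and 25.4 TPM in the controls and 37.6, 39.2 and 33.1 TPM with the MEN1 shRNA (log2 fold change 0.62, adjusted p 0.0026). FOXK2 (-0.38), HCFC1 (-0.29) and MBD5 (-0.87) fell, the last with a ratio of 0.514 in TPM and 0.525 in scaled gene-level coverage. BAP1 was at a log2 fold change of -0.05 (adjusted p 0.502). Of the demethylases that erase the PRC2 mark, KDM6A had a log2 fold change of 0.38 (adjusted p 0.0161), with adjusted p-values of 0.0534, 0.0554 and 0.0557 without control replicate 1, control replicate 3 and MEN1 shRNA replicate 2. KDM6B was at 0.24 (adjusted p 0.106).

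**Figure D4:**
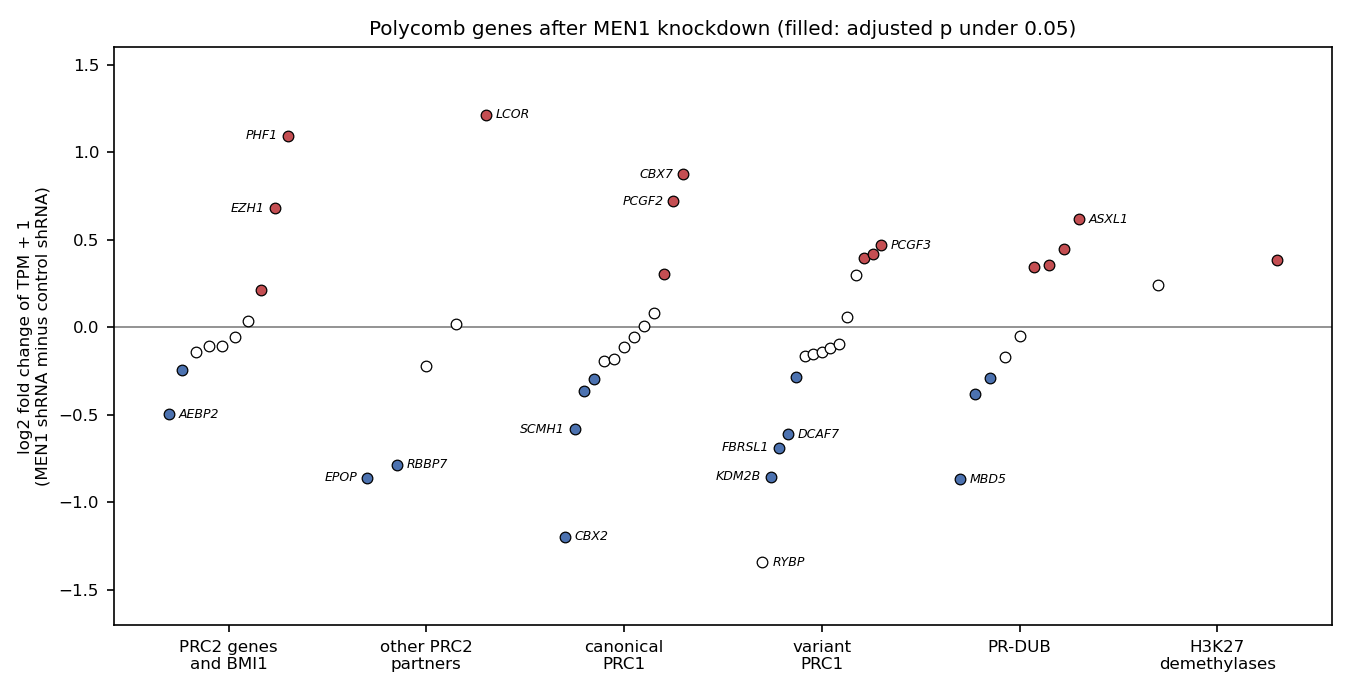
Log2 fold change (vertical axis, MEN1 shRNA minus control shRNA, log2(TPM + 1)) of every tested gene of the Polycomb lists, 1 point per gene, filled red or blue where it rose or fell at an adjusted p under 0.05. Each of the first 5 groups from the left, the PRC2 genes and BMI1 included, holds genes on both sides of 0, from -1.34 for RYBP, which did not pass, to 1.21 for LCOR.

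Genes that Polycomb is classically known to silence were mostly without transcript in both groups. Of 18 listed targets, 15 were below the filter and reached at most 0.307 TPM in any library, among them GATA4, PAX6, SOX17 and HAND1. The 3 that passed the filter all passed the threshold, 1 upward and 2 downward, beside 53.6% of all genes tested. The count was 2 without the filter and without control replicate 1, control replicate 2, MEN1 shRNA replicate 1 or MEN1 shRNA replicate 2. CDKN2B, an inhibitor of cell cycle kinases, was at 10.4, 7.13 and 7.26 TPM in the controls and 21.4, 31.3 and 32.2 TPM with the MEN1 shRNA (log2 fold change 1.66, adjusted p 0.000282). Its neighbour CDKN2A, the best known target of BMI1, was at 519, 483 and 302 TPM in the controls and 244, 261 and 291 TPM with the MEN1 shRNA. The groups of CDKN2A came close, at 302 against 291 TPM. Its log2 fold change was -0.68 (adjusted p 0.0191), and the call was lost without control replicate 1 (adjusted p 0.0604), control replicate 2 (0.0654), MEN1 shRNA replicate 1 (0.0595) or MEN1 shRNA replicate 2 (0.0528). WT1 fell from 20.2 ± 1.98 to 7.01 ± 2.33 TPM (adjusted p 0.000599, log2 fold change -1.44).

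Because EZH2, EED and SUZ12 are known targets of E2F factors, 13 S-phase genes driven by E2F were set beside them. Of these, 7 rose in limma and 6 did not pass, so 53.8% of the list was called, beside 53.6% of all genes tested and 22.1% upward. With gene-level coverage 6 rose and 1 fell. CCNE2 (log2 fold change 1.52), E2F1 (0.87), RRM2 (0.76) and PCNA (0.33) had the lowest adjusted p-values, 1.59e-05 to 0.000822. The summed TPM of the list was 2870 to 3060 in the controls and 3390 to 3490 with the MEN1 shRNA. The part of cell cycle state and of erythroid markers in the values of EZH1, EZH2 and EED was not tested.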

How the data were processed

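Poly(A) RNA libraries were made with a directional kit, per the labels' protocols. Per the submitters' processing notes, FastQC, Trimmomatic, STAR 2.7.1a, Picard 2.20.4 and StringTie 2.0.4 were used with build hg38 (annotation and strand setting: not given in the sources used here). Each library has 1 deposited table with TPM, FPKM (fragments scaled by the authors to transcript length and library total) and coverage, the deposited signal per base, not scaled for depth. In control replicate 2, negative residues in TPM (1 gene) and coverage (2 genes) were set to 0. Of 58261 gene rows shared with GENCODE v29 on GRCh38, 58201 overlapped their position there, the 10 members among them.

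Depth was taken from the ratio of coverage to FPKM in single-transcript genes, constant within 0.1% in at least 94.93% of them, at 302 bases per read pair. No read counts were used, so no count model was fitted.

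Values were log2(TPM + 1), for genes at or above 1 TPM in 3 or more libraries. Fold changes therefore understate those of low genes. The contrast was fitted with limma 3.58.1 in R 4.3.3 (eBayes with trend, 2-sided). P-values were adjusted by Benjamini and Hochberg across the 14294 genes. The fit was tested on simulated data with few changed genes and with larger changes than most members had. That run cannot show how calls fare where many genes move by small amounts. Shares of TPM have no test. The members and lists were chosen with earlier results of these data known. Named genes are the members, MEN1, same-strand overlapping rows, at most 4 genes per list with the lowest adjusted p, and the 3 genes nearest in profile to EZH1, EZH2 and BMI1, of which 1 is not reported here. Same-strand small RNA and pseudogene rows inside the members, at most 1.67 TPM, are not described singly. On the opposite strand the pseudogene EEF1A1P4 lies inside AEBP2. It was at 4.34, 4.25 and 5.16 TPM in the controls and 3.62, 6.91 and 6.47 TPM with the MEN1 shRNA. Alternatives covered unit, pseudocount, filter, scaling, variance model, replicate block and each library left out; gene-level coverage for the fits was added after seeing the data. Figures were drawn with matplotlib 3.10.9, and tables were handled with NumPy 2.4.6 and pandas 2.3.3 in Python 3.11.15.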

Additional observations from a re-analysis of the deposited data

How the results depend on the processing

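EZH1 (0.65 to 0.77), PHF1 (1.04 to 1.21) and AEBP2 (-0.59 to -0.25, the latter with 1 added to coverages below 1) kept their direction and passed the threshold under all 18 alternatives. Of 180 comparisons over the 10 members, 155 kept both their direction and their call. The log2 fold change of EZH2 turned to 0.0325 with median-of-ratios scaling, 0.0052 with quantile normalization and 0.0116 after globin and mitochondrial genes were left out of the TPM total. These scalings moved the median of all genes by 0.078, 0.066 and 0.059. MTF2 turned to 0.0307 with gene-level coverage. PHF19 turned to -0.0504 with array weights, -0.1029 without control replicate 1, and -0.0386 and -0.0243 without MEN1 shRNA replicates 1 and 3; with 1 library left out it ran from -0.1029 to 0.1688. None of these 3 genes passed the threshold in any alternative.

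Members past the threshold numbered 3 to 6 with 1 library left out, and genes past it 6577 to 7543. Deviations from group means were hardly correlated between same-numbered libraries (0.017, -0.027 and -0.012), so the numbers were not taken to pair them. With the replicate block, 3 members passed (EZH1, PHF1 and AEBP2), and the sum of BMI1 and COMMD3-BMI1 stayed at -0.2336 (adjusted p 0.0816). That sum also missed the threshold at -0.2336 without a filter and without the trend, at -0.1473 with median-of-ratios scaling, -0.1497 with quantile normalization and -0.1683 with rescaled TPM, and ran from -0.2883 to -0.1725 with 1 library left out. The EZH1 share differed by 9.63 to 13.2 points; FPKM cannot move a share. The accessory share differed by 4.261 points with gene-level coverage. In no case was the cause tested further.

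Among other named genes, HDLBP turned to 0.0524 with median-of-ratios scaling, 0.0314 with rescaled TPM and 0.0034 without MEN1 shRNA replicate 2 (-0.0716 to 0.0034 with 1 library left out); EXOC7 to 0.0424, 0.0218 and, with quantile normalization, 0.0458; DDX1 to 0.0233 and 0.0023; and PTPN21 to 0.1265 with gene-level coverage. With 3 libraries a group, differences of the size seen for EED and BMI1 lie near what the fit can separate.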

Other observations

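A pair of further Polycomb genes varied widely between control libraries. RYBP, a core subunit of variant PRC1, was at 15.9, 57.1 and 60.1 TPM in the controls and 24.2, 6.53 and 18.4 TPM with the MEN1 shRNA, in replicate order, so control replicate 1 lay within the range of the knockdown (log2 fold change -1.34, SE 0.591, adjusted p 0.0922 in limma). PHC2, a polymerising subunit of canonical PRC1, was at 31.7, 36.8 and 15.8 TPM in the controls and 25.1, 23.5 and 20.7 TPM with the MEN1 shRNA. These genes were chosen after their values were seen.

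The genes whose centred log2(TPM + 1) values over the 6 libraries lay nearest to those of EZH1 were PSME1, SREBF2 and CAPN1, at distances of 0.0498 to 0.0598. Their log2 fold changes were 0.66, 0.69 and 0.69. Nearest to EZH2 were HDLBP, EXOC7 and DDX1 (0.0609 to 0.0697), none of which passed the threshold. Among the genes nearest to BMI1 were FAM83F and PTPN21, at distances of 0.0607 and 0.0641 and each with a log2 fold change of -0.25. FAM83F passed (adjusted p 0.036 in limma) but lost its call in 10 of 18 alternatives. PTPN21 did not pass (0.178). It lay at 1.26 to 2.08 TPM, where the added 1 weighs on the fold change, and its TPM ratio was 0.754 against 0.841 for BMI1.

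Markers of other lineages were low or partly present. Mast cell and basophil markers summed to 1040 to 1310 TPM in the controls and 725 to 885 TPM with the MEN1 shRNA, carried by the near-identical tryptase genes TPSAB1 and TPSB2, while CPA3, HDC, FCER1A and CMA1 stayed below 1 TPM. Megakaryocyte markers summed to 32.0 to 36.8 and 17.1 to 21.9 TPM, nearly all from ITGA2B. Monocyte and granulocyte markers summed to 2.25 to 2.72 TPM in the controls and 0.728 to 2.22 TPM with the MEN1 shRNA. Lymphocyte markers summed to 1.11 to 1.32 and 3.97 to 6.05 TPM. Most of the latter came from CD3D, at 4.75, 3.03 and 5.43 TPM with the MEN1 shRNA. Fibroblast markers summed to at most 4.55 TPM, in control replicate 2, where COL1A1 was at 2.24 and COL1A2 at 2.02 TPM.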
